A study of Homo sapiens with 36 samples.

Results

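The genes described here encode the respiratory chain, the protein complexes of the inner mitochondrial membrane that pass electrons to oxygen, and the ATP synthase. The rule that picks them reads only gene type and symbol: protein-coding genes whose symbol starts with NDUFA, NDUFB, NDUFC, NDUFS or NDUFV and a digit, COX4 to COX8, UQCR, ATP5 or MT-, or is SDHA, SDHB, SDHC or SDHD. The table of expression values held 97 such genes among 21797. Of these, 84 lie in the nuclear genome and 13 in the mitochondrial genome. By complex, 39 nuclear genes belonged to complex I, 4 to complex II, 9 to complex III, 13 to complex IV and 19 to complex V, and the mitochondrially encoded genes were 7, 0, 1, 3 and 2 in the same order.

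The samples came from UM-SCC-1, an established human head and neck squamous carcinoma cell line, infected with retrovirus that carried a scramble control or an shRNA and selected with blasticidin at 10 ug/mL for 4 days. Total RNA was sequenced from 6 groups: an ALKBH5 scramble, ALKBH5 shRNA-1 and ALKBH5 shRNA-2, and likewise 3 groups for RBM33, its own scramble, shRNA-1 and shRNA-2. The labels give 3 replicates a group, and 15 of the 18 RNA-seq libraries were analysed, with 3 of each scramble, 2 of ALKBH5 shRNA-1, 2 of ALKBH5 shRNA-2, 2 of RBM33 shRNA-1 and 3 of RBM33 shRNA-2. All groups share the cell line, the viral infection and the drug selection, and m6A-seq of the same 6 treatments is known here only through the authors' tables of peaks. Titles say shRNA where the protocol says siRNA, and the titles are followed. The labels do not tell whether replicates were grown apart, so p-values cover the scatter of these libraries alone, some or all of which may be technical.

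ALKBH5 is a demethylase that erases m6A, the N6-methyl mark on adenosines of RNA, and RBM33 binds RNA and has been described as a partner of ALKBH5. Complex I oxidises NADH, complex II oxidises succinate, complex III hands the electrons to cytochrome c, complex IV reduces oxygen, and complex V makes ATP from the proton gradient that the others build. Most subunits are made from nuclear genes and imported, while a few core subunits of every complex except complex II are transcribed from mitochondrial DNA as long joint transcripts, so assembly draws on both genomes. Nuclear subunit genes are known targets of NRF1, of the ETS family member GABP and of YY1, whose sites often lie close to the start of transcription.

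The sequences below are the 250 bases before the start of 5 nuclear genes that the results turn on, from RefSeq on GRCh38.p14, 5′ to 3′ on the strand of the gene. COX6A1, UQCRQ, UQCR10 and ATP5MG rose with the ALKBH5 shRNAs, and NDUFS1 fell. Capitals mark matches on either strand to CCGGAAG (ETS), AAGATGG (YY1) or GCGCA and GCGC with any base between them (NRF1).
COX6A1, chr12:120437863-120438112, plus strand: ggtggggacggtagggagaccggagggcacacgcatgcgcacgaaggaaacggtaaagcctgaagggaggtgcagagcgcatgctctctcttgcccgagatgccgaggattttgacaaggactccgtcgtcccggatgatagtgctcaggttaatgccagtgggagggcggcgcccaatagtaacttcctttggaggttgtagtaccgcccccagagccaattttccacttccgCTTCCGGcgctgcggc
UQCRQ, chr5:132866392-132866641, plus strand: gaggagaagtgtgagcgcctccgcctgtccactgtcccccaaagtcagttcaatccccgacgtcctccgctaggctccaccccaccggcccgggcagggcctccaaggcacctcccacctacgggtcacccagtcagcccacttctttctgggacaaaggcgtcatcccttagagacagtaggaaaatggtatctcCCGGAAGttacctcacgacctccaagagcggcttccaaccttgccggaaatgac
UQCR10, chr22:29767119-29767368, plus strand: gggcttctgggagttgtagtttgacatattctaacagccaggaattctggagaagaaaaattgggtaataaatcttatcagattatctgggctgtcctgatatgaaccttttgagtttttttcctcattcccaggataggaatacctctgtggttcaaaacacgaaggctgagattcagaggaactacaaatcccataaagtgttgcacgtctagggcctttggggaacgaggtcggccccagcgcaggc
ATP5MG, chr11:118401356-118401605, plus strand: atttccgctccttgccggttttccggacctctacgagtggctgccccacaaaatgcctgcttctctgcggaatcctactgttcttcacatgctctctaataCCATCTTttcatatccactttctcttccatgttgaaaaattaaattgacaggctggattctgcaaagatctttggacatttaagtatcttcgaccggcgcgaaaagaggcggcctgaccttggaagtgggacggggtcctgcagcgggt
NDUFS1, chr2:206159445-206159694, minus strand: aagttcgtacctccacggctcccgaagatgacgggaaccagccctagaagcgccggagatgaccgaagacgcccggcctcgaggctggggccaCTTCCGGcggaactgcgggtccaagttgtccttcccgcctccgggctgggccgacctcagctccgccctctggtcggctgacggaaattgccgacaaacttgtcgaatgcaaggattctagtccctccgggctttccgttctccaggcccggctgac
The COX6A1 match is an ETS match on the opposite strand, 16 to 10 bases before the start, and the UQCRQ match is an ETS match 54 to 48 bases before it. Starts here are RefSeq starts, and the annotated spans of COX6A1 and UQCRQ given below begin within the printed bases. By the annotated start, the COX6A1 match lies inside the gene. ATP5MG has a YY1 match on the opposite strand 149 to 143 bases before the start. NDUFS1 has an ETS match on the opposite strand 157 to 151 bases before it, and UQCR10 has no match in these 250 bases. In the longer window counted next, which adds 50 bases after the start, UQCR10 held the NRF1 letters and ATP5MG also the ETS letters.

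Promoter windows from 250 bases before to 50 bases after the start were found for 67 of the 82 nuclear genes tested for expression. Of these, 16 (23.9%) held the NRF1 letters, 21 (31.3%) the ETS letters and 18 (26.9%) the YY1 letters on either strand. Among all 27305 genes with such windows the shares were 6.98%, 12.2% and 7.11%. At least 1 of the 3 motifs occurred for 43 of the 67 genes (64.2%), against 23.0% of all genes. The 27305 genes outnumber the 21797 in the table of expression values, so their shares are not those of expressed genes alone. Among the 24 matched genes that rose with the ALKBH5 shRNAs, 4 held the NRF1 letters, 9 the ETS letters and 9 the YY1 letters. Among the 42 matched genes not called in that comparison, the counts were 12, 11 and 9. A match describes letters in a window and not a bound site, and no test was made between these counts.

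Library depth ranged from 4493849 to 6733017 reads in the listed genes, so that 1 read was worth 0.143 to 0.22 CPM (counts of a gene scaled to the size of its library), and 3 reads, the limit that a count of 0 allows, 0.43 to 0.659 CPM. The targeted ALKBH5 transcript fell by 0.53 on the log2(CPM + 1) scale with the ALKBH5 shRNAs (SE 0.08, limma adjusted p = 9.1e-05). The RBM33 transcript had 217, 207 and 227 CPM in its own scramble and 191 to 214 CPM in the 5 libraries labelled RBM33 shRNA, ranges that overlapped, and the log2 change of -0.10 (SE 0.06) did not pass limma (adjusted p = 0.27), so every direction below rests on the labels of those libraries. Of 10 squamous epithelial markers, DSP and PERP had 170.0 to 215 and 49.5 to 67.9 CPM, and EPCAM, CDH1 and SFN at most 4.2 CPM. KRT5, KRT14, KRT17, KRT6A and TP63 were not among the genes in the table of expression values, so they were not analysed here. Summed markers of fibroblasts (5 of 5 in the table) had 24.2 to 38.8 CPM, of leukocytes (2 of 5) 0.511 to 4.24 CPM, of endothelium (2 of 4) 1.5 to 5.47 CPM and of muscle (3 of 6) 0.682 to 5.83 CPM. In bulk RNA, fewer cells of a type and less RNA per cell cannot be told apart.

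In the deposited CPM, the 13 mitochondrially encoded genes together took 1.36% to 2.22% of the reads of a library. Per kilobase of gene, averaged over the 15 libraries, they included the most abundant transcripts of the chain. MT-CO1, the catalytic subunit of complex IV, had 3261 CPM per kilobase, and MT-CO2, which receives electrons from cytochrome c, had 2741. MT-ND3, a small complex I subunit, was the lowest of the 13 at 242, close to the highest nuclear gene, the complex I subunit NDUFS5, at 248 CPM per kilobase. The lowest nuclear genes tested were NDUFA9 at 1.76, NDUFA4L2 at 2 and UQCRHL, a retrocopy of UQCRH, at 3.21 CPM per kilobase. COX8C (0.55 CPM on average) and COX6B2 (0.794 CPM), both best known from testis, were below the mean of 1 CPM required for testing, which left 82 nuclear and 13 mitochondrially encoded genes.

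The summed level of the nuclear genes was lowest in the ALKBH5 scramble. Its 3 libraries had 6072, 6418 and 6012 CPM. The 4 ALKBH5 shRNA libraries had 7104, 7297, 8097 and 6960.2 CPM, the RBM33 scramble 7764, 7738 and 8187 CPM, and the 5 RBM33 shRNA libraries 6950.4, 7657, 7372, 6561 and 7314 CPM. All 12 other libraries thus lay above the 3 of the ALKBH5 scramble. The summed level of the mitochondrially encoded genes was 22009.8, 16847 and 16462 CPM in the ALKBH5 scramble, where replicate 1 stood apart, and 14744, 16043, 13517 and 13996 CPM in the ALKBH5 shRNA libraries. It was 18672, 17989 and 17472 CPM with the RBM33 scramble and 18463, 18414, 16664, 18474 and 16672 CPM in the RBM33 shRNA libraries. The 4 ALKBH5 shRNA libraries had the lowest values of all 15, also below the ALKBH5 scramble without replicate 1.

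**Figure D1:**
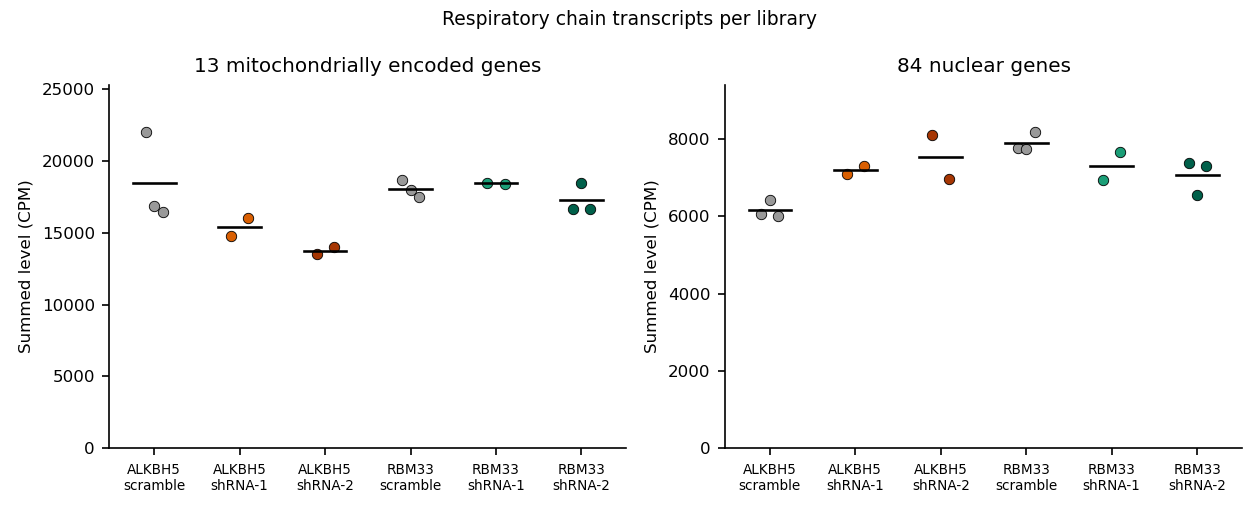
Summed CPM (vertical axes, starting at 0) of the 13 mitochondrially encoded genes and of the nuclear genes in each of 15 libraries, by group on the horizontal axis, with the bar at the group mean. The 3 ALKBH5 scramble libraries have the lowest nuclear sums, and the ALKBH5 shRNA libraries the lowest mitochondrial sums.

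Exact two-sided permutation tests over libraries compared these sums, 12 tests in all. With the ALKBH5 shRNAs (n = 4) against their scramble (n = 3), the nuclear sum was 7365 ± 508 against 6168 ± 219 CPM (SD), 1.19 times as high, and the mitochondrial sum 14575 ± 1102 against 18439 ± 3098 CPM, 0.79 times as high. Neither pair of groups overlapped, and both exact permutation tests gave p = 0.0571, the smallest that 4 against 3 libraries allow (0.114 after adjustment over the 12 tests). With the RBM33 shRNAs (n = 5) against their scramble (n = 3), the nuclear sum was 7171 ± 424 against 7896 ± 252 CPM, 0.908 times as high, again without overlap (exact permutation p = 0.0357, the smallest possible, adjusted 0.114). The mitochondrial sum, 17737 ± 976 against 18044 ± 602 CPM, did not differ beyond the spread (exact permutation p = 0.607). The mitochondrial to nuclear ratio was 3.63, 2.63 and 2.74 in the ALKBH5 scramble and 2.08, 2.2, 1.67 and 2.01 in the ALKBH5 shRNA libraries, which did not overlap (exact permutation p = 0.0571). In the RBM33 scramble it was 2.41, 2.33 and 2.13 and in the RBM33 shRNA libraries 2.66, 2.41, 2.26, 2.82 and 2.28, which overlapped (exact permutation p = 0.357).

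With the ALKBH5 shRNAs, nuclear respiratory chain transcripts that passed the test mostly rose and mitochondrially encoded ones fell relative to the ALKBH5 scramble. Of 82 nuclear genes, 27 rose and 1 fell (limma, Benjamini-Hochberg adjusted p under 0.05), against 7.93% of all 18227 genes that rose and 7.18% that fell. With only the 12887 genes averaging 5 CPM or more tested, 1422 rose and 1409 fell. The median log2 change was 0.26 for the nuclear genes and 0.005 (log2) for all genes, and 71 of 82 were above 0. In 33 nuclear genes all 4 shRNA libraries lay above all 3 scramble libraries, and in 2 below, where 12.3% and 11.9% of all genes did so. Of the 13 mitochondrially encoded genes 0 rose and 8 fell, all 13 changes were negative, and their median was -0.35. The same comparison without ALKBH5 scramble replicate 1 called 20 nuclear rises and 0 falls, and 5 mitochondrial falls with a median of -0.18. In that fit 956 of all 18227 genes rose and 754 fell.

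Rises were found in every complex. Of the 39 nuclear complex I genes 12 rose and 1 fell (median log2 change 0.23), of the 4 complex II genes 1 rose (0.18), of the 9 complex III genes 3 rose (0.30), of the 11 complex IV genes tested 5 rose (0.27) and of the 19 complex V genes 6 rose (0.24). Differences between complexes were not tested. The summed CPM of the nuclear complex IV genes was 919, 976 and 959 in the ALKBH5 scramble and 1162, 1170.0, 1496 and 1130.0 in the ALKBH5 shRNA libraries, and the complex III sum was 793, 835 and 783 against 976, 1018, 1107 and 910.0. In both complexes every shRNA library lay above every scramble library, and the same held for the nuclear sums of complexes I, II and V.

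In complex IV the largest rise was in COX6A1, the ubiquitous form of a small regulatory subunit (chr12:120438090-120440737, plus strand, the annotated span). Its level was 45.6, 51.0 and 46.8 CPM with the ALKBH5 scramble, and 109.2, 90.4, 113.5 and 95.0 CPM in the ALKBH5 shRNA libraries. The groups did not overlap, and the log2 change was 1.07 (SE 0.10, limma adjusted p = 1.1e-07), a 2.11-fold difference. COX6C, another small nuclear subunit of complex IV, was at 71.8, 87.6 and 83.3 CPM against 117, 131, 201 and 125 CPM, a log2 change of 0.79 (limma adjusted p = 3.9e-05). ALKBH5 shRNA-2 replicate 1 was the highest library for COX6C, and the other 3 shRNA libraries also lay above the scramble. COX6B1, which bridges the dimer of complex IV, rose by 0.74 (limma adjusted p = 0.00056), and COX7C and COX7A2 rose by 0.55 and 0.33. COX5A, a subunit on the matrix side, had a log2 change of -0.05 and COX4I1, the largest nuclear subunit, 0.18, neither called.

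In complex III, UQCR10, a small subunit next to cytochrome c1 (chr22:29767369-29770413, plus strand), was at 46.4, 67.0 and 52.8 CPM with the ALKBH5 scramble and 98.1, 103.2, 109 and 101 CPM in the ALKBH5 shRNA libraries, which did not overlap. Its log2 change was 0.90 (SE 0.11, limma adjusted p = 8.2e-06). UQCRQ, which binds next to cytochrome b (chr5:132866630-132868847, plus strand), was at 80.4, 123 and 102.5 CPM against 163, 166, 191 and 149 CPM. Replicate 1 of the scramble was the lowest library, and without overlap the log2 change was 0.73 (SE 0.11, limma adjusted p = 0.00013). UQCRC1, a core protein of complex III, rose by 0.31 (limma adjusted p = 0.036) with libraries that overlapped, and UQCRC2, the other core protein, had -0.20 and was not called.

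In complex I, NDUFB2, a membrane arm subunit (chr7:140690777-140722790, plus strand), was at 27.6, 36.3 and 32.4 CPM with the ALKBH5 scramble and 65.4, 59.8, 67.4 and 60.3 CPM in the ALKBH5 shRNA libraries. The groups did not overlap, and the log2 change was 0.96 (SE 0.11, limma adjusted p = 9.6e-07). NDUFA6, NDUFA1 and NDUFS5, all accessory subunits outside the catalytic core, rose by 0.67, 0.62 and 0.61. The exception was NDUFS1, the largest core subunit, which carries iron-sulfur clusters. It was at 177, 173 and 148 CPM in the scramble and 136, 147, 139 and 136 CPM in the shRNA libraries, a narrow gap without overlap, and fell by 0.25 (SE 0.07, limma adjusted p = 0.022). It was no longer called without ALKBH5 scramble replicate 1, ALKBH5 scramble replicate 2 or ALKBH5 shRNA-1 replicate 1.

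In complex V, ATP5MG, a subunit of the membrane part (chr11:118401606-118431496, plus strand), was at 45.2, 49.0 and 44.3 CPM with the ALKBH5 scramble and 71.4, 68.2, 86.9 and 70.1 CPM in the ALKBH5 shRNA libraries. The groups did not overlap and the log2 change was 0.67 (SE 0.10, limma adjusted p = 5.5e-05). ATP5ME, ATP5PF and ATP5F1E rose by 0.45, 0.38 and 0.38, ATP5IF1, the inhibitor of the synthase, and ATP5PO rose by 0.30 each, and the lowest value, -0.28 in ATP5F1D, was not called (limma adjusted p = 0.054). Of the complex II genes, SDHB, the iron-sulfur subunit, was at 90.8, 85.3 and 80.1 CPM in the scramble against 105, 109.6, 116 and 110.6 CPM, and rose by 0.37 (limma adjusted p = 0.0074). SDHA, the flavoprotein, had a log2 change of -0.02, and the membrane anchors SDHC and SDHD had 0.10 and 0.26, none called.

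**Figure D2:**
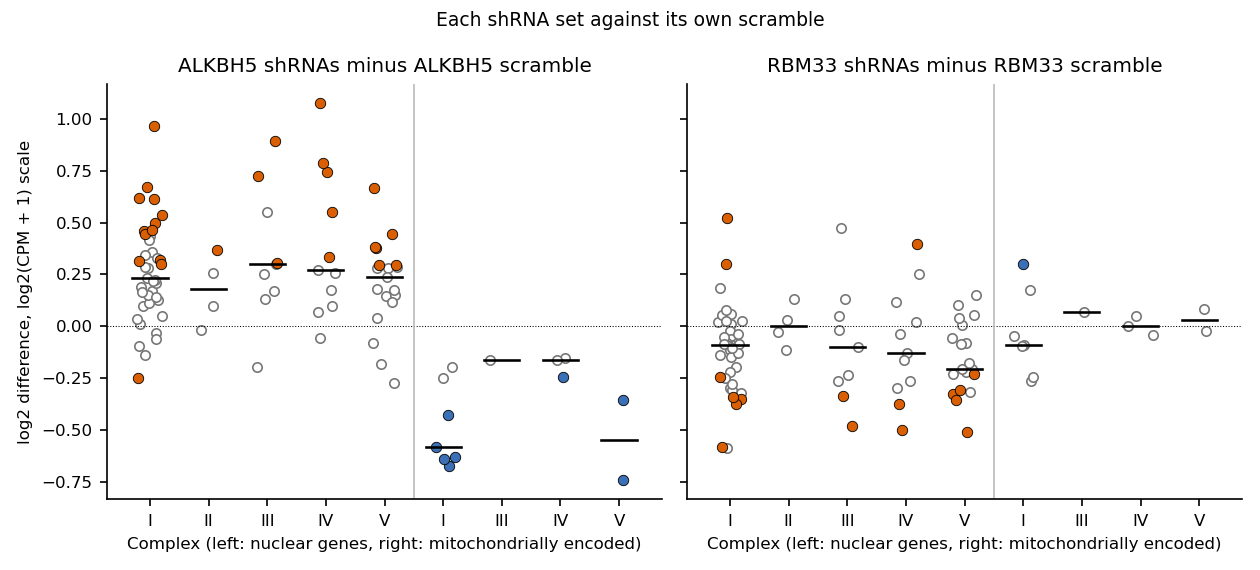
Log2 change on the log2(CPM + 1) scale (vertical axis) of each tested gene by complex (horizontal axis), nuclear genes in the left and mitochondrially encoded genes in the right part of each panel, for the ALKBH5 and the RBM33 shRNAs against their own scramble. Filled points passed the limma threshold and lines are medians; for ALKBH5 the nuclear medians are above 0 in all 5 complexes and the mitochondrial medians below 0.

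The mitochondrially encoded genes did not fall alike. Of the 7 complex I genes 5 fell, of the 2 complex V genes both, of the 3 complex IV genes 1, and the complex III gene MT-CYB was not called. The largest fall was in MT-ATP8, a small subunit of the synthase (chrM:8366-8572). It was at 786, 474 and 534 CPM with the ALKBH5 scramble and 355.5, 437, 279 and 343 CPM in the ALKBH5 shRNA libraries. All 4 shRNA libraries lay below the scramble, of which replicate 1 was far above the others, and the log2 change was -0.74 (SE 0.12, limma adjusted p = 0.00024).

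MT-ND5, a proton-pumping subunit of complex I (chrM:12337-14148), was at 2452, 1796 and 1831 CPM in the scramble against 1437, 1437, 1051 and 1274 CPM, a log2 change of -0.64 with an SE of 0.09 (limma adjusted p = 4.2e-05). MT-ND4, also a pumping subunit, was at 3492, 2186 and 2281 CPM against 1674, 1881, 1362 and 1633 CPM, a log2 change of -0.67 with an SE of 0.11 (limma adjusted p = 0.0003). Neither gene's groups overlapped. MT-ND3, MT-ND4L and MT-ND6, membrane subunits of complex I, fell by 0.63, 0.58 and 0.43, MT-ATP6, part of the proton channel of the synthase, fell by 0.35, and MT-CO3 fell by 0.24 with libraries that overlapped. MT-CO1 was at 5766, 4952 and 4700.0 CPM against 4587, 4971, 4514 and 4351 CPM, overlapping ranges, with a log2 change of -0.15 (95% interval -0.32 to 0.01) that was not called. MT-ND1, MT-ND2, MT-CYB and MT-CO2 had -0.25, -0.20, -0.16 and -0.16, none called.

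Of the 8 falls, MT-ATP8, MT-ND4, MT-ND4L and MT-ND5 were called whichever library was left out, and MT-ATP6, MT-CO3 and MT-ND3 were no longer called without ALKBH5 scramble replicate 1. MT-ATP6 and MT-CO3 were also lost without ALKBH5 shRNA-1 replicate 1 or ALKBH5 shRNA-2 replicate 1, MT-CO3 also without ALKBH5 shRNA-2 replicate 3, and MT-ND6 without ALKBH5 scramble replicate 2. Reads of MT-ATP8 and MT-ATP6, and of MT-ND4L and MT-ND4, come from overlapping genes, MT-ND5 and MT-ND6 abut on opposite strands, and the sources used here do not say whether counting used strand. Nuclear copies of mitochondrial genes can share their reads: of 13 such pseudogenes 7 fell (median log2 change -0.51). Of the mitochondrial ribosomal RNAs, MT-RNR1 fell by 0.63 (limma adjusted p = 0.03) and MT-RNR2 had -0.46 and was not called, while of 22 mitochondrial tRNA genes 1 rose, MT-TD, by 0.93, and 0 fell. Over all genes, 7.93% rose and 7.18% fell in the ALKBH5 comparison.

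**Figure D3:**
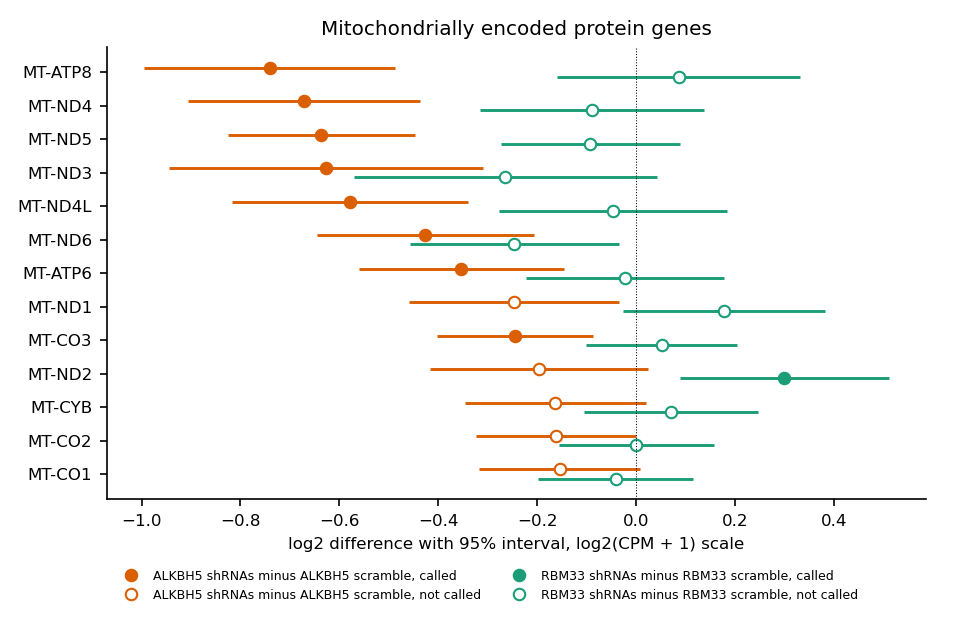
Log2 change with its 95% interval (horizontal axis, log2(CPM + 1) scale) of the 13 mitochondrially encoded genes (vertical axis) for the ALKBH5 and the RBM33 shRNAs against their own scramble. All 13 ALKBH5 values are below 0, from -0.74 in MT-ATP8 to -0.15 in MT-CO1, and the RBM33 values lie between -0.26 and 0.30.

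In libraries labelled RBM33 shRNA, fewer nuclear genes were called and most of these were lower than in the RBM33 scramble. Of 82 nuclear genes, 3 rose and 14 fell (limma, adjusted p under 0.05), against 8.5% and 9.25% of all genes, and the median log2 change was -0.10 against -0.01 for all genes. Calls were more frequent among better expressed genes: with only the 12887 genes averaging 5 CPM or more tested, 1456 rose and 1708 fell. All 5 shRNA libraries lay below all 3 scramble libraries in 16 nuclear genes and above them in 4, where 11.6% and 10.8% of all genes did so. By complex, 2 rose and 5 fell in complex I, 0 and 0 in complex II (0 of 4 genes also at an unadjusted p under 0.05), 0 and 2 in complex III, 1 and 2 in complex IV, and 0 and 5 in complex V, where the median was lowest at -0.21. The call count was 11 in place of 17 without RBM33 scramble replicate 1 and also without replicate 3. Over all 18227 genes it was 2083 and 2345 in these fits in place of 3235.

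The ATP synthase subunit ATP5F1D, part of the central stalk (chr19:1241746-1244825, plus strand), was at 121, 126 and 115 CPM with the RBM33 scramble and 80.3, 89.6, 89.9, 77.3 and 86.6 CPM in the RBM33 shRNA libraries. The groups did not overlap, and the log2 change was -0.51 (SE 0.09, limma adjusted p = 0.00039). COX5A, at 96.2, 85.4 and 96.4 CPM in the scramble, was at 71.5, 65.3, 59.4, 61.1 and 66.1 CPM in the shRNA libraries, also without overlap, and fell by 0.50 (SE 0.10, limma adjusted p = 0.00067). UQCRC1 was at 188.5, 181 and 169 CPM against 138, 119, 145, 109.6 and 135 CPM and fell by 0.48 (SE 0.09, limma adjusted p = 0.00091). In each of these 3 genes the lowest scramble library was above the highest shRNA library.

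NDUFA11, a membrane arm subunit of complex I, had the largest called fall, at 32.3, 31.2 and 34.6 CPM in the scramble against 22.3, 25.6, 23.3, 16.9 and 18.4 CPM, a log2 change of -0.58 with an SE of 0.13 (limma adjusted p = 0.0022). NDUFB9, NDUFB10, NDUFV1 and NDUFV3 of complex I fell by 0.38, 0.35, 0.34 and 0.25. NDUFV1 binds NADH, and the complex III core protein UQCRC2 and the catalytic synthase subunit ATP5F1B fell by 0.33 and 0.23. COX5B, the zinc-binding subunit of complex IV, fell by 0.37, and ATP5F1E, ATP5F1C and ATP5PF of the synthase fell by 0.36, 0.325 and 0.31. The rises were in NDUFA9, an accessory subunit of complex I, by 0.52, in COX6B1 by 0.40 and in NDUFB2 by 0.30 (limma adjusted p = 0.015, 0.037 and 0.041). NDUFA9 was at 18.3, 10.7 and 16.0 CPM in the scramble and 20.1 to 22.2 CPM in the shRNA libraries, and scramble replicate 2 was the lowest library.

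Of the 13 mitochondrially encoded genes, MT-ND2 rose by 0.30 (limma adjusted p = 0.045) and 0 fell, with a median of -0.02. MT-ND2 was at 529, 496.5 and 444 CPM with the RBM33 scramble and 616.5, 645, 521, 660.5 and 549.5 CPM in the shRNA libraries. The ranges overlapped, and the call was lost under edgeR and DESeq2 on whole reads. It was made in 8 of the 15 fits that leave out 1 library, and not without any of the RBM33 scramble libraries. Of the 22 mitochondrial tRNA genes 0 rose and 9 fell, MT-TR with -1.90 the most, and both ribosomal RNAs were not called. Over all genes, 8.5% rose and 9.25% fell in this comparison.

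**Figure D4:**
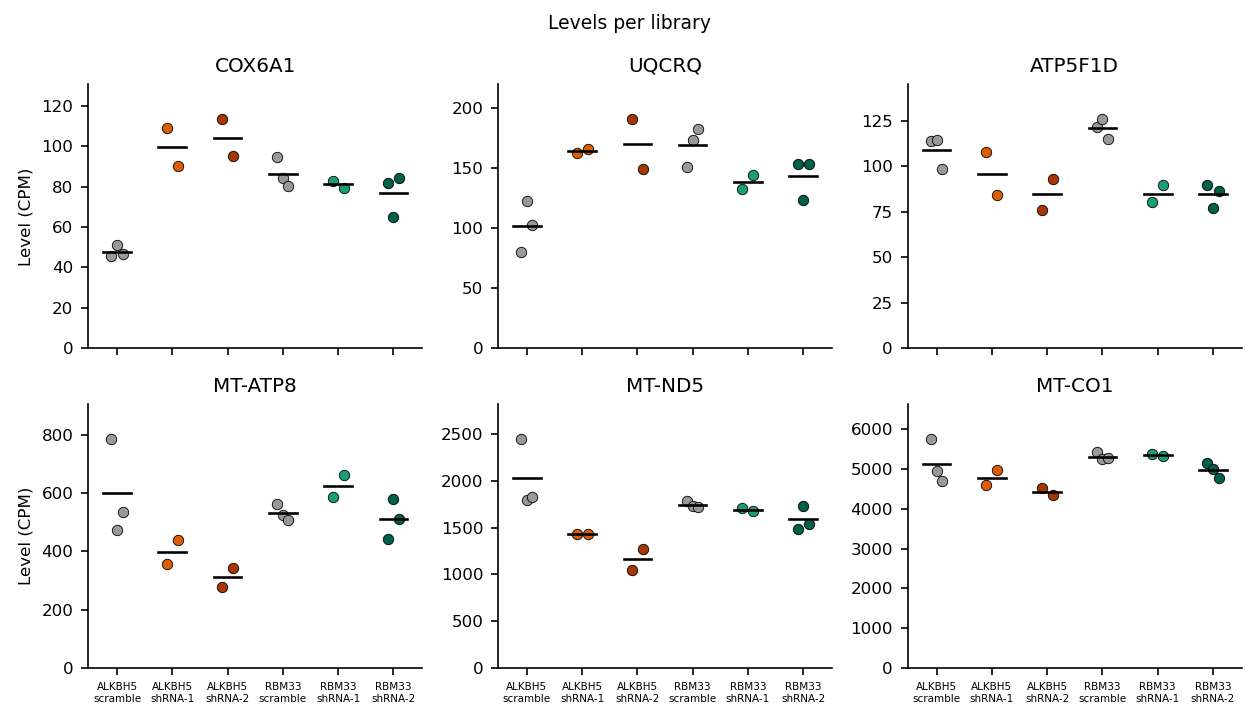
CPM (vertical axes, starting at 0) of COX6A1, UQCRQ, ATP5F1D, MT-ATP8, MT-ND5 and MT-CO1 in each of 15 libraries, by group on the horizontal axis. COX6A1 is at 45.6 to 51.0 CPM with the ALKBH5 scramble and at 64.9 CPM or more in all other libraries, and MT-ATP8 is lowest in the ALKBH5 shRNA libraries.

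The difference between the 2 effects was tested as an interaction in the same limma fit. The ALKBH5 effect was above the RBM33 effect in 19 of 82 nuclear genes and below it in 0, against 2.01% and 0.686% of all genes, with a median difference of 0.38. It was below the RBM33 effect in 3 of the 13 mitochondrially encoded genes, MT-ATP8, MT-ND4 and MT-ND5, and above it in 0. Of these 3, MT-ATP8 was called in all 15 fits that leave out 1 library, MT-ND5 in 12 and MT-ND4 in 4. COX6A1 had the largest difference, 1.20 (SE 0.14, limma adjusted p = 1.2e-05). UQCRC1 rose with the ALKBH5 shRNAs and fell with the RBM33 shRNAs, a difference of 0.78 (limma adjusted p = 0.0019). ATP5F1D and COX5A differed by 0.24 and 0.45, and neither difference was called (limma adjusted p = 0.42 and 0.085). Without ALKBH5 scramble replicate 1 the interaction was called in 15 nuclear genes and 1 mitochondrial gene. Over all 18227 genes it was then called in 321 in place of 491.

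The controls themselves differed in these genes. Between the scrambles, 0 nuclear genes were higher and 25 lower in the ALKBH5 scramble than in the RBM33 scramble, where 0.269% and 2.21% of all genes were. The median log2 difference was -0.33, 80 of 82 values were negative, and in 59 genes the 3 ALKBH5 scramble libraries all lay below the 3 RBM33 scramble libraries, against 11.9% of all genes. By complex the lower genes were 10 in complex I, 0 in complex II, 5 in complex III, 3 in complex IV and 7 in complex V. COX6A1, at 94.4, 84.1 and 80.1 CPM in the RBM33 scramble, was lower in the ALKBH5 scramble by a log2 difference of -0.84 (SE 0.11, limma adjusted p = 5.2e-05), and UQCRQ, ATP5ME, COX5B and ATP5MG had -0.74, -0.71, -0.69 and -0.68. Of the mitochondrially encoded genes 0 were called in limma, edgeR or DESeq2 and 0 at an unadjusted limma p under 0.05. CPM were also rescaled to a common total outside the 13 mitochondrially encoded protein genes, a total that keeps mitochondrial ribosomal RNAs and tRNAs. Then 15 nuclear genes were lower and 0 higher, against 201 and 375 of all genes. The median of all genes moved from 0.003 to 0.11 on the log2 scale. Deposited totals, which this rescaling evens out, were 992833, 954042 and 955051 CPM in the ALKBH5 scramble. In the RBM33 scramble they were 1045915, 1050515 and 1048877 CPM. The ALKBH5 comparison uses the lower of these scrambles and the RBM33 comparison the higher, and whether the scrambles were handled alike was not tested.

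Set against each other directly, the ALKBH5 and RBM33 shRNA libraries showed 0 nuclear genes called by limma in either direction, where 0.302% of all genes were called. The median difference was 0.02. An unadjusted p under 0.05 was found in 21 nuclear genes, and the share of all genes at that level is not given here. Of the nuclear genes edgeR called 0 and DESeq2 called 4 (COX6A1, COX6C and NDUFB2 higher and NDUFA12 lower with ALKBH5 shRNAs). Over all 18227 genes edgeR called 53 and DESeq2 213. COX6A1 had a difference of 0.36 (SE 0.09, limma adjusted p = 0.073). All 13 mitochondrially encoded genes were lower with the ALKBH5 shRNAs, with a median of -0.34, and 3 were called, MT-ATP8 by -0.69, MT-ND2 by -0.44 and MT-CO3 by -0.34 (limma adjusted p = 0.0069, 0.043 and 0.034), where 0.214% of all genes were lower. In 8 of the 13 all 4 ALKBH5 shRNA libraries lay below all 5 RBM33 shRNA libraries, as did 2.25% of all genes. The summed mitochondrial level was 0.822 times that of the RBM33 shRNA libraries without overlap (exact permutation p = 0.0159, the smallest that 4 against 5 libraries allow, adjusted 0.0952), and the nuclear sum 1.03 times (exact permutation p = 0.54). The count of 3 rested on single libraries: it was 10 without ALKBH5 scramble replicate 1, 7 without RBM33 shRNA-2 replicate 1, and 0 without ALKBH5 shRNA-1 replicate 1, ALKBH5 shRNA-2 replicate 1 or RBM33 shRNA-1 replicate 2. Over all 18227 genes 55 were called with every library, and 67, 99, 5, 4 and 3 in these fits in the same order.

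**Figure D5:**
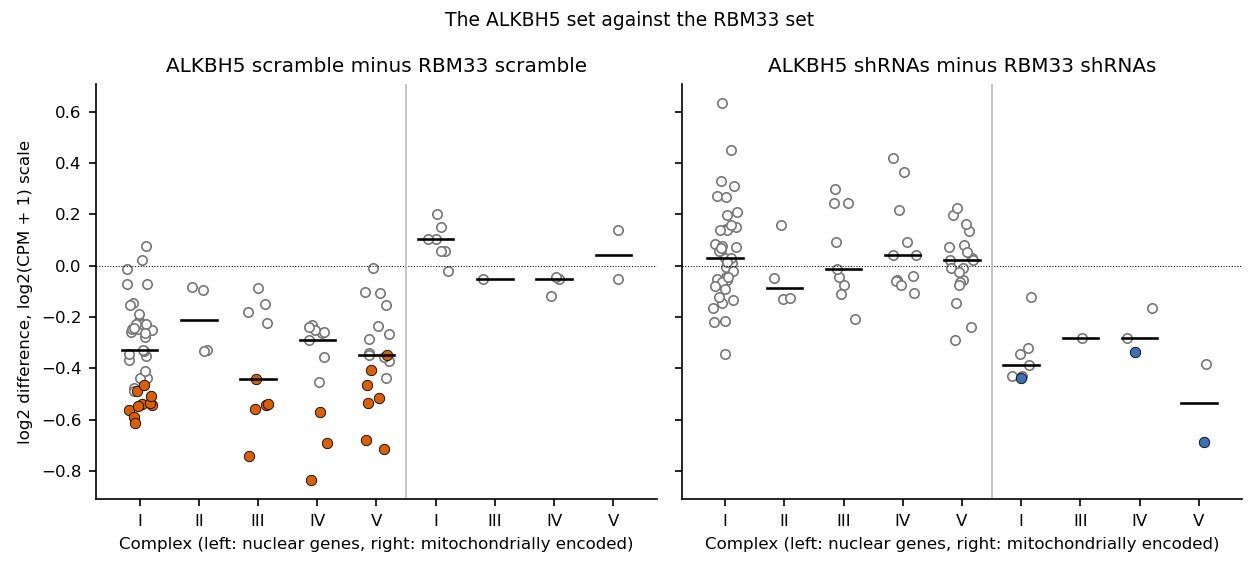
Log2 difference on the log2(CPM + 1) scale (vertical axis) of each tested gene by complex (horizontal axis), for the ALKBH5 against the RBM33 scramble and for the ALKBH5 against the RBM33 shRNA libraries, drawn as in the plot of changes by complex. Nuclear genes lie below 0 between the scrambles (median -0.33) and around 0 between the shRNA libraries (median 0.02).

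Each shRNA was also compared on its own with its scramble. ALKBH5 shRNA-1 gave 15 called nuclear genes and 4 mitochondrial ones, and shRNA-2 gave 21 and 7, against 8.53% and 10.1% of all genes. Of these, 11 nuclear and 3 mitochondrial genes were called with both. RBM33 shRNA-1 gave 9 nuclear genes and 1 mitochondrial gene, and shRNA-2 15 and 0, against 10.9% and 13.7% of all genes, with 7 nuclear genes called by both. Each pair shares its scramble libraries. The share of all genes called with both shRNAs is not given here, so these overlaps have no background to be read against. COX6A1 changed by 1.04 and 1.11 with the ALKBH5 shRNAs and ATP5F1D by -0.51 and -0.51 with the RBM33 shRNAs. Between the shRNAs of a target, limma called 0 of all 18227 genes. In the authors' deposited table of edgeR comparisons, with a false discovery rate under 0.05, 17 nuclear genes rose and 0 fell with ALKBH5 shRNA-1, and 19 rose and 1 fell with shRNA-2, while 0 rose and 11 fell with RBM33 shRNA-1 and 2 rose and 18 fell with shRNA-2. The authors' deposited table called 7.32%, 7.61%, 9.97% and 11.6% of all its genes in these 4 comparisons. For mitochondrially encoded genes the authors' deposited table gave 0 rises and 2 falls, 0 and 2, 3 and 1, and 0 and 0.

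Other genes related to the chain were taken from lists of assembly factors, of mitochondrial RNA factors and of transcriptional regulators. All counts here stand against the 7.93% of all genes that rose and 7.18% that fell with the ALKBH5 shRNAs, and the 8.5% and 9.25% with the RBM33 shRNAs. With the ALKBH5 shRNAs 7 of 25 complex IV assembly factors rose and 0 fell (median log2 change 0.30), and 4 of 19 complex I assembly factors rose and 0 fell (0.20). Of the assembly factors of complexes II, III and V, 0 of 4, 2 of 6 and 1 of 5 rose, and 0 fell. Of 31 factors of mitochondrial transcription and RNA handling 3 rose and 2 fell. SLIRP, which binds mitochondrial messenger RNA together with LRPPRC, rose by 1.10 (limma adjusted p = 1.8e-06), and LRPPRC itself fell by 0.37 (limma adjusted p = 0.0011). TFB2M, a mitochondrial transcription factor, and HSD17B10, a subunit of mitochondrial RNase P, rose by 0.62 and 0.61, and TOP1MT, the mitochondrial topoisomerase, fell by 0.25.

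Of 11 regulators 2 rose and 1 fell with the ALKBH5 shRNAs: HCFC1, a coactivator, by 0.855, PPRC1, a relative of PGC-1alpha, by 0.425, and GABPA, the DNA-binding subunit of GABP, by -0.36. With the RBM33 shRNAs HCFC1, PPARGC1B and PPRC1 rose by 1.21, 0.66 and 0.52, and GABPA fell by 0.29. A further list held 11 genes of the chain or related to it, and only its largest called changes are given. OXA1L, which inserts proteins into the inner membrane, rose by 0.67 and 0.37 in the ALKBH5 and RBM33 comparisons, and CHCHD10 fell by 0.64 and 0.56. SLC25A5, an ADP/ATP carrier, rose by 0.535 with the ALKBH5 shRNAs, and CYC1, cytochrome c1, fell by 0.37 with the RBM33 shRNAs. With the RBM33 shRNAs, 1 of 19 complex I assembly factors rose and 2 fell, and 3 of 25 complex IV assembly factors rose and 2 fell, against 8.5% and 9.25% of all genes. Of the other assembly factors, 1 of 6 for complex III and 1 of 4 for complex II, SDHAF4 by 0.94, fell, and 0 of 5 for complex V were called. Of 31 RNA factors 4 rose and 1 fell.

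Gene length moved with these comparisons. In the ALKBH5 comparison the shortest of 4 length classes of all genes had a median log2 change of 0.07 and the longest -0.04, and in the RBM33 comparison -0.06 and 0.06. The trend was larger for the interaction, 0.13 and -0.119, and between the scrambles, -0.094 and 0.085. With a smooth trend on gene length removed, 23 nuclear genes rose and 1 fell with ALKBH5 shRNAs, 3 rose and 16 fell with RBM33 shRNAs, and 11 mitochondrial genes fell with ALKBH5 shRNAs. For ALKBH5 and RBM33 the counts of nuclear genes were thus within 1.5 times of those without the correction. Over all genes, the correction lowered the interaction calls from 491 to 323 and the calls between the scrambles from 452 to 332. Nuclear counts with the correction are not given here for the interaction and the scrambles.

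The m6A tables list peaks that the authors found changed with each shRNA against its scramble, with coordinates on hg38, and none lay on chrM. For the effects only an unadjusted p-value is given, so a listed effect did not pass the adjusted threshold used for RNA. In the authors' deposited table of effects, on a natural log scale and listed from an absolute effect of 0.5, 42 of the 82 nuclear genes (51.2%) had a peak for ALKBH5 shRNA-1 and 45 (54.9%) for shRNA-2, against 34.3% and 40.0% of all genes. With shRNA-1, 43 of the 63 member peaks in the authors' deposited table were higher, and with shRNA-2, 49 of the 72, where 64.7% and 72.5% of all listed peaks were higher. For the RBM33 shRNAs the authors' deposited tables of effects held 9 peaks in 7 genes (8.54%) and 8 peaks in 5 genes (6.1%), all higher with the shRNA, against 8.31% and 12.0% of all genes with a peak and 87.6% and 87.5% of all listed peaks higher. ATP5F1D and UQCRHL were listed in the authors' deposited tables for all 4 shRNAs. A UQCRHL peak at chr1:15807650-15807699 had effects of 1.75 and 0.98 with the ALKBH5 shRNAs and 1.71 and 1.26 with the RBM33 shRNAs in the authors' deposited tables, and since UQCRHL is a near copy of UQCRH its reads are uncertain.

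Methylated percentages are given in a second, shorter set of tables. For ALKBH5 shRNA-1, 8 nuclear genes (9.76%, against 3.4% of all genes) each had 1 peak in the authors' deposited table, and all 8 were higher with the shRNA, as were 67.7% of all peaks listed there. COX6A1 had 67.8% with the shRNA and 24.5% with the scramble at chr12:120438140-120438189 (adjusted p = 4.5e-05 in the authors' deposited table), 50 bases after the annotated start. NDUFA8, a complex I subunit of the intermembrane space, had 71.1% against 26.8%, ATP5MF, a membrane subunit of the synthase, 65.7% against 21.0%, and SDHA 55.8% against 22.1% in the authors' deposited table. UQCRH, the hinge protein of complex III, had 48.4% against 22.8%, NDUFB2 45.3% against 16.0%, NDUFA12 31.0% against 15.3% and COX5A 20.4% against 8.42% in the authors' deposited table. Of these 8 genes COX6A1 and NDUFB2 rose in RNA with the ALKBH5 shRNAs, and the other 6 were not called, with log2 changes from -0.08 in ATP5MF to 0.25 in UQCRH.

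For ALKBH5 shRNA-2, 2 nuclear genes were listed in the authors' deposited table (2.44%, against 0.798%), 1 higher and 1 lower, where 91.2% of all listed peaks were higher. There COX6A1 had 72.8% with the shRNA and 42.0% with the scramble at another position, chr12:120440521-120440620 near the end of the gene (adjusted p = 1.4e-13 in the authors' deposited table), and NDUFB7, an intermembrane space subunit of complex I, 53.6% against 66.7%. COX6A1 was thus listed for both ALKBH5 shRNAs in the authors' deposited tables, at different peaks. Effects of both signs were listed for it too: -0.73 at chr12:120438190-120438388 with shRNA-1, and 1.28 and -0.70 with shRNA-2 at chr12:120438489-120440570 and chr12:120440621-120440670, in the authors' deposited tables.

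For RBM33, the authors' deposited tables of percentages listed 1 nuclear gene for each shRNA (1.22%, against 0.11% and 0.0991% of all genes), ATP5F1D, at the same peak, chr19:1244680-1244825, at the end of the gene. It had 75.6% with shRNA-1 against 56.2% with the scramble (adjusted p = 0.017) and 78.1% with shRNA-2 against 56.7% (adjusted p = 0.00011) in the authors' deposited tables. Of the effects, 3 ATP5F1D peaks in the authors' deposited tables between chr19:1244480-1244529 and chr19:1244680-1244729 had 1.48, 1.34 and 1.305 with RBM33 shRNA-1 and 1.28, 1.78 and 1.29 with shRNA-2. A window that overlaps the last of these was also listed with ALKBH5 shRNA-2, at chr19:1244680-1244825 with 1.06, in the authors' deposited table. ATP5F1D RNA fell in the RBM33 comparison. Each peak is 1 value per table with no replicate values, so its spread was not analysed here.

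Peak positions are given for each ALKBH5 shRNA. The counts near a start or an end also take in peaks beyond it, and gene length was not taken into account. Within 200 bases of the gene's annotated start lay 7 of the 8 member peaks (87.5%) in the authors' deposited table of percentages for shRNA-1, against 29.3% of its 714 peaks matched to a gene, and 21 of 63 member peaks (33.3%) in its table of effects, against 9.29%. In the authors' deposited table of effects for shRNA-2, 5 of 72 member peaks (6.94%) lay near the start, against 3.08% of all matched peaks, and 0 of the 49 that were higher, against 1.24% of all higher ones. Within 200 bases of the gene's end lay 9 of the 72 (12.5%) in the same authors' deposited table, against 2.17%. Over all matched peaks the share near the start was likewise lower for shRNA-2 than for shRNA-1 (3.08% and 9.29% in the effects, 4.42% and 29.3% in the percentages of the authors' deposited tables), and no difference in position was tested.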

How the data were processed

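RNA-seq of 6 groups of UM-SCC-1 libraries was deposited as a table of CPM per library, the authors' signal per gene; from the values, these are counts divided by a normalized library size, since whole reads were recovered for 100% of values within 0.1 read. The submitters' processing notes name hg38 as the build and list, with no roles, HISAT2 2.1.0, cutadapt 1.18, Subread 1.6.4 with featureCounts, DESeq2 and edgeR 3.24.3. The authors' deposited comparison tables give log2 fold changes and p-values. Their deposited m6A tables give effects on a natural log scale, methylated levels as a fraction (printed here as percent) with log2 ratios, and p-values; no source used here names the peak caller. Peak names in older symbols were matched through RefSeq synonyms.

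Values were tested as log2(CPM + 1) for 18227 genes averaging 1 CPM or more, in 1 limma 3.58.1 fit (R 4.3.3) of 6 group means with a mean-variance trend and 9 residual degrees of freedom before moderation, with Benjamini-Hochberg adjustment over all genes and a threshold of 0.05. A shRNA effect is the mean of both shRNA groups minus the scramble of its set. A fold change on this scale understates the change of low genes. Shares over all genes, for RNA and for m6A peaks, were not matched to the level of the members. The RNA-seq script was tested on simulated data. Sums were compared with exact permutation tests. Alternatives were other pseudocounts (0.5 and 2), filters, scalings and fits, leaving out each library, and edgeR 4.0.16 and DESeq2 1.42.0 on the recovered reads. No interval here covers more than the spread between libraries, and the 3-read limit covers counting error only.

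The members and the other gene lists were chosen with earlier results of these data known. Named genes were all 13 mitochondrially encoded and 4 SDH genes, up to 8 largest called rises and falls per comparison, the extremes of each complex, genes with m6A peaks and, per other list, up to 3 largest called changes; a few further members are named as examples and were chosen after their values were seen. NDUFA4 and NDUFA4L2 were counted with complex I by symbol, although NDUFA4 is known as a complex IV subunit. Readthrough genes named NDUFC2-KCTD14 and ATP5MF-PTCD1 matched the name rule and share reads with their neighbours.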

Additional observations from a re-analysis of the deposited data

Results flagged for a closer look

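In 19 nuclear and 3 mitochondrially encoded genes the ALKBH5 effect differed from the RBM33 effect by the interaction term of the limma fit (adjusted p under 0.05). The log2 difference was 1.20 in COX6A1, 0.99 in UQCRQ, 0.84 in UQCR10, 0.84 in ATP5MG, 0.78 in UQCRC1, 0.76 in NDUFA6, 0.75 in NDUFB8, 0.73 in ATP5F1E, 0.71 in NDUFA11, 0.70 in NDUFB9, 0.69 in ATP5PF, 0.67 in COX6C, 0.66 in NDUFB2, 0.65 in ATP5ME, 0.63 in COX5B, 0.56 in NDUFA1, 0.48 in SDHB, 0.46 in ATP5MC2 and 0.38 in ATP5F1B. It was -0.54 in MT-ND5, -0.58 in MT-ND4 and -0.83 in MT-ATP8. Of these, 12 nuclear genes and MT-ATP8 were called whichever library was left out. In this fit each such difference equals the difference between the shRNA libraries minus that between the scrambles. For COX6A1 these were 0.36 and -0.84, and for UQCRQ 0.25 and -0.74 (log2, ALKBH5 minus RBM33), and in each of the 19 nuclear genes except COX6C the difference between the scrambles was the larger in size. For MT-ATP8 they were -0.69 and 0.14, and in the 3 mitochondrially encoded genes the difference between the shRNA libraries was the larger. No group had enough libraries for a check of single libraries against the rest of their group.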

How the results depend on the processing

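None of the 155 called gene results changed direction in 3965 values under the alternatives, 457 of these values were no longer called, and 189 values of the 420 results not called became called; 337 of the 10605 values of these 420 changed sign. Leaving out each library moved the nuclear counts between 20 and 35 (ALKBH5), 11 and 20 (RBM33), 13 and 26 (interaction), 14 and 28 (scrambles) and 0 and 1 (shRNAs directly), and the mitochondrial counts between 5 and 9, 0 and 1, 1 and 5, 0 and 0, and 0 and 10. The 14 for the scrambles was without ALKBH5 scramble replicate 3, and 16 without RBM33 scramble replicate 1.

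With gene length removed, mitochondrial counts were 2 (RBM33), 7 (interaction) and 8 (shRNAs directly), and 1 nuclear gene was called between the shRNAs. Scaling to a common total outside the 13 mitochondrially encoded protein genes gave 7 mitochondrial genes in the interaction, 15 nuclear genes between the scrambles and 1 between the shRNAs. DESeq2 gave 0 mitochondrial genes for RBM33, and 6 mitochondrial and 4 nuclear genes between the shRNAs, and edgeR gave 0 mitochondrial genes for RBM33. The causes were not tested. The same scaling, which also evens out differences between the deposited totals, moved the split of all genes between the scrambles from 49 higher and 403 lower to 375 and 201. For RBM33 it moved from 1549 and 1686 to 1915 and 1165.

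Same-numbered libraries did not deviate together (r from -0.14 to 0.07 over 31 pairs, 0 above 0.1). With 2 or 3 libraries a group, these correlations cannot tell whether same-numbered libraries were handled together. With a replicate block, 25 nuclear and 8 mitochondrial genes were called for ALKBH5, 16 and 1 for RBM33, 16 and 2 for the interaction, 23 and 0 between the scrambles, and 0 and 1 between the shRNAs. At a stricter adjusted p of 0.01, 4 genes in place of 8 stayed in the ALKBH5 shRNA-1 table of percentages, 1 of 2 for shRNA-2 and 0 of 1 for RBM33 shRNA-1. Depth limits the lowest genes: 3 reads were 0.43 to 0.659 CPM.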
